A study of Mus musculus with 6 samples.

Results

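Chromatin accessibility was examined at 9 genes whose products build the mucus of the intestine: Muc2, Tff3, Agr2, Clca1, Fcgbp, Zg16, Muc13, Muc4 and Muc1. They are 9 of 21938 protein-coding genes of the annotation and were listed by name, with earlier results of these data known. For each gene, every peak whose summit lay in the gene body or within 10 kb of it was taken. Peaks of the 6 lists that overlapped by at least 1 base were merged into regions, which gave 53 regions at these genes out of 71286 in all. Of the 53, 28 were called in all 6 lists, and the series as a whole held 32748 such shared regions.

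The data were ATAC-seq of crypts from the mouse intestine, taken in the study's methods from the proximal jejunum. ATAC-seq marks open chromatin by the sites where the Tn5 transposase can cut and tag DNA. The WT group held 3 samples labelled Arid3a WT, and the cKO group held 3 samples labelled Arid3a KO, in which a tamoxifen-inducible Cre driven by Villin deletes floxed Arid3a (VillinCre-ERT2; Arid3a fl/fl). Both groups received tamoxifen on 3 consecutive days, and their crypts were collected 1 month after the first injection. Villin is active throughout the intestinal epithelium, so the deletion was not confined to goblet cells, and cells outside the epithelium keep Arid3a. Each sample was a bulk preparation of crypt cells, so fewer cells of a type and less accessible chromatin per cell cannot be told apart. The labels do not say whether samples came from separate animals, and the spread between them may then be technical.

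Goblet cells are the secretory cells that fill and release mucus granules. Muc2 is the gel-forming mucin, Agr2 is the endoplasmic reticulum protein needed for its folding, and Tff3, Clca1, Fcgbp and Zg16 are secreted with it into the mucus. Muc13, Muc4 and Muc1 are transmembrane mucins of the apical cell surface and are also made by epithelial cells other than goblet cells. A peak at a gene in bulk crypts therefore does not by itself tell which cell type was open there.

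The lists held 40492 to 58297 peaks. Genome-wide coverage, read as the most frequent background value recovered from the caller's own arithmetic, was 1.75 to 2.29 fragments per base. The Arid3a promoter carried a peak in all 6 lists, which does not test the deletion, because a peak list holds no reads across a floxed exon. Among marker genes, the promoters of 6 of 6 epithelial and 4 of 4 crypt base genes had a peak in every list. None of 6 leukocyte genes had a promoter peak in any list, and of 6 genes of stroma and endothelium 2 (Col1a1 and Pdgfra) had a peak in every list and 4 in none. Among all shared regions, those at promoters ranked 2.52 percentile points lower in cKO in the median, and distal regions 0.621 points higher. This shift of promoters moved with cKO 1 and cKO 3, whose median promoter percentiles were 68.4 and 68.8 against 73.3 to 75.9 in the other 4 lists.

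The 9 genes carried the same mean number of peaks in both genotypes. The WT lists held 32, 42 and 42 peaks in the 9 windows and the cKO lists 44, 36 and 36, a mean of 38.7 in each (SD 5.77 and 4.62, n = 3). The genotypes overlapped, and the lowest and the highest counts came from the shortest list, WT 1, and the longest, cKO 1. As a share of the whole list the counts were 0.0790%, 0.0828% and 0.0762% in WT and 0.0755%, 0.0776% and 0.0700% in cKO. These shares were lower in cKO in the mean, and the genotypes overlapped.

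Peaks at promoters of the 9 genes, with a summit from 1000 bp upstream to 100 bp downstream of an annotated start, numbered 4, 4 and 4 in WT and 5, 4 and 5 in cKO. Distal peaks numbered 23, 33 and 32 in WT and 35, 27 and 29 in cKO. By the summit rule the peak over the start of Agr2 counted as promoter in WT 1 and cKO 3 alone, and as distal elsewhere. Muc4 had a promoter peak by this rule in WT 1 and all 3 cKO lists. The remaining 5, 5 and 6 peaks in WT and 4, 5 and 2 in cKO lay at promoters of neighbouring genes. Of the 53 regions, 0 were called in all 3 cKO lists and no WT list, a pattern found at 0.464% of all regions, and 0 in all 3 WT lists and no cKO list, found at 0.111%. The share of regions called in all 6 lists was 52.8% at these genes and 45.9% over the genome, and the share called in a single list was 20.8% and 20.9%.

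**Figure D1:**
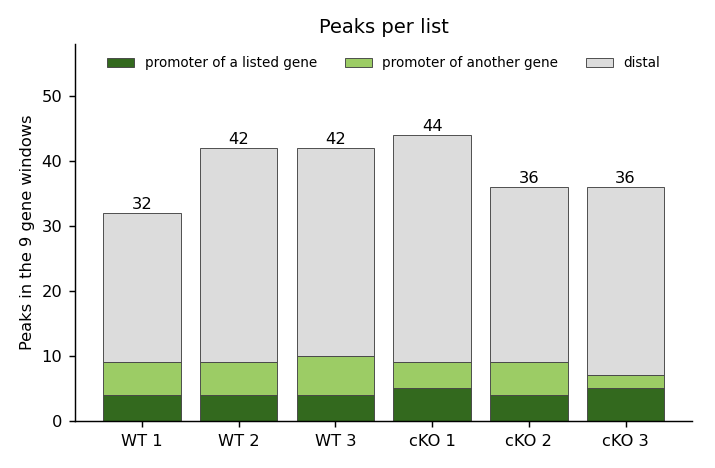
Peaks in the windows of the 9 genes (gene body plus 10 kb on each side) in each of the 6 lists, stacked by class, with the total above each bar. The WT totals of 32, 42 and 42 and the cKO totals of 44, 36 and 36 overlap, and promoter peaks make up 4 or 5 of each.

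The genes differed widely from each other. A typical coding gene had a median of 2 regions in its window (quartiles 1 and 4), and 21.9% of windows had none. Muc13 had 17 regions, a number reached by 1.4% of coding genes, and 9 of them were called in every list. Muc4 had 7 regions (5 shared), Tff3 and Clca1 6 each (1 shared), Fcgbp 5 (3 shared), Agr2, Zg16 and Muc1 4 each (3 shared), and Muc2 had 0. Counting any overlap of a peak with the promoter window, Agr2, Fcgbp, Muc13 and Muc4 had a promoter peak in all 6 lists and Muc1 in 5 (2 WT and 3 cKO). Clca1 had such a peak in WT 3 alone, at an internal start, with its summit 23.75 kb into the gene. Muc2, Tff3 and Zg16 had one in no list. Over all coding genes, 58.6% had a promoter peak in all 6 lists and 33.9% in none.

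**Figure D2:**
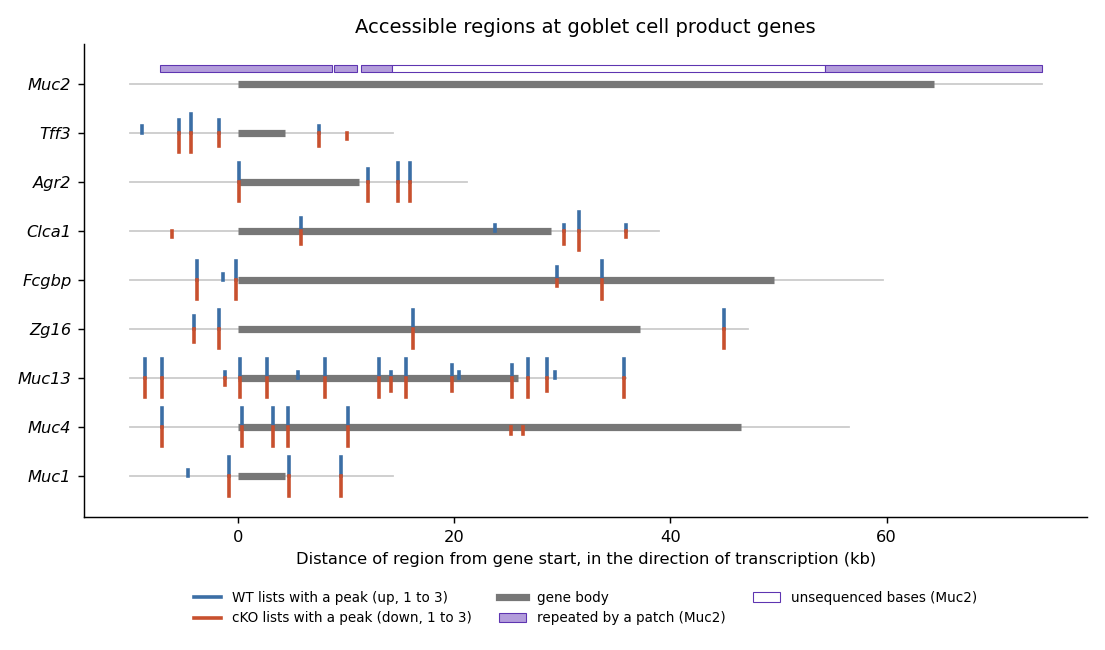
Position of each region relative to the start of its gene, in kb along the direction of transcription, with the number of WT lists (line upward) and cKO lists (line downward) that called it. Muc13 holds 17 regions and Muc2 holds 0, and the boxes above Muc2 mark the stretches of its window that a genome patch repeats exactly or that consist of unsequenced bases.

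No peak was called at Muc2 in any list. The nearest peaks of any list ended 18.6 kb before the gene and began 124.0 kb after it, a gap of 206.9 kb on chromosome 7. The gene (ENSMUSG00000025515.15) lies at chr7:141690340-141754693 in GRCm38. In GRCm38.p6, 47.7% of its 84.4 kb window is unsequenced (N), and a further 48.5% is repeated without a mismatch by a fix patch that carries a second copy of the locus. A run of 15.9 kb over the start of Muc2 is identical in both copies, and 7 of its 8 annotated transcripts start in such a run. None of the other 8 windows holds any repeated or unsequenced base.

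The authors aligned to the full set of sequences of the assembly, and their lists hold peaks on patches, so both copies were targets of the alignment. Over all 74 patches, 23.49 Mb of the chromosomes are repeated in runs of at least 300 bp. In those runs the lists held 0.0852 to 0.341 peaks per Mb. In the 50 kb on either side they held 13.0 to 17.3 peaks per Mb, and over whole chromosomes 14.9 to 21.4. The depletion was present in all 6 lists and in both genotypes. How reads in these runs were placed or filtered was not tested, and the lists give no reading of accessibility at Muc2 in either genotype. Of all coding genes, 1.18% have every annotated start in such a run.

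**Figure D3:**
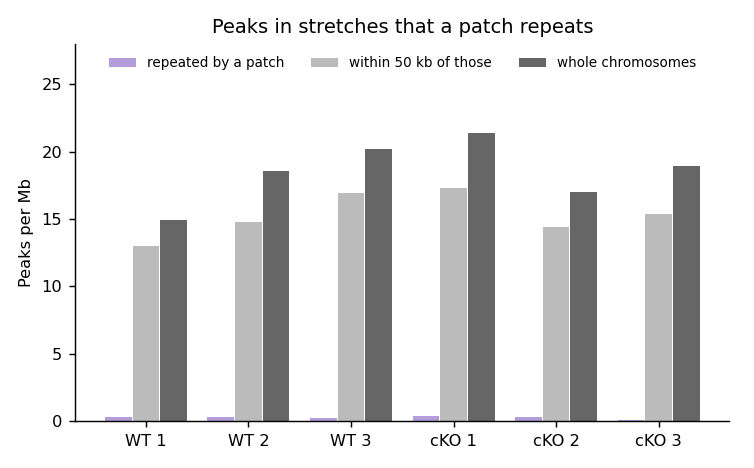
Peaks per Mb in each list in chromosome stretches that a patch repeats exactly over at least 300 bp, in the 50 kb around them, and over whole chromosomes. The repeated stretches hold 0.0852 to 0.341 peaks per Mb, against 13.0 to 17.3 beside them.

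The 250 bp before the start of Muc2, from RefSeq on GRCm38.p6, are shown because the patch repeats them. They match the chromosome at this position and occur once, base for base, on the patch. Capitals mark letters of the motifs searched on both strands: TATA box letters (TATAAA) that overlap the first of a pair of GATA matches (AGATAA), an E-box (CAGNTG) and overlapping KLF matches (GGGCGGG or GGGTGGG). The TATAAA letters lie nearer the far end of the stretch than the start of Muc2. Whether they act as a TATA box was not tested. The search allowed no mismatch, so the letters tataag, close to the start of Muc2, stayed in lower case. Of 32851 promoters of this length, 12.4% hold the TATA box letters, 9.99% GATA, 44.8% the E-box and 33.7% KLF.
Muc2 promoter, chr7:141690090-141690339: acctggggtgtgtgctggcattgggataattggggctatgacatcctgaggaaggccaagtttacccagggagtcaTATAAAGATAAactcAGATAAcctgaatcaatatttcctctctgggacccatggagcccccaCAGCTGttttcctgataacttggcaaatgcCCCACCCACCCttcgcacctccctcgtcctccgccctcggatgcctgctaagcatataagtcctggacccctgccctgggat

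The other regions were compared by rank. The fold enrichment in each list, the pileup at the summit over the local background, was turned into a percentile among the 32748 shared regions, with 100 the highest. limma was fitted to these percentiles over all shared regions. With Benjamini-Hochberg adjustment it called 0 of 32748 regions between the genotypes at a threshold of 0.05 (0% called), and 2151 regions had an unadjusted p under 0.05. At the 9 genes 0 of 28 regions were called and 1, inside Fcgbp, had an unadjusted p under 0.05. The half-width of the 95% interval of a difference ran from 3.85 to 25.3 percentile points at these regions, with a median of 14.3.

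In 2 of the 28 regions all 3 cKO percentiles lay above all 3 WT percentiles, against 5.86% of all shared regions. In 1 of the 28 they all lay below, against 6.08%. Both counts are near that background. Across the 28 regions 13 differences were positive and 15 negative, with a median of -0.658 points, and over the genome 46.1% were positive. The 4 shared promoter regions had a median difference of 1.18 points and the 20 shared distal regions one of -0.171. The distal class includes the region over the start of Agr2, whose summit lay 149 bp inside the gene and past the promoter limit. In the promoter region of Muc1, the WT 1 peak did not reach the promoter window. The promoter median turned negative under other settings, among them -2.17 with ranks within whole lists and -3.67 without cKO 2, so neither value gives a direction.

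**Figure D4:**
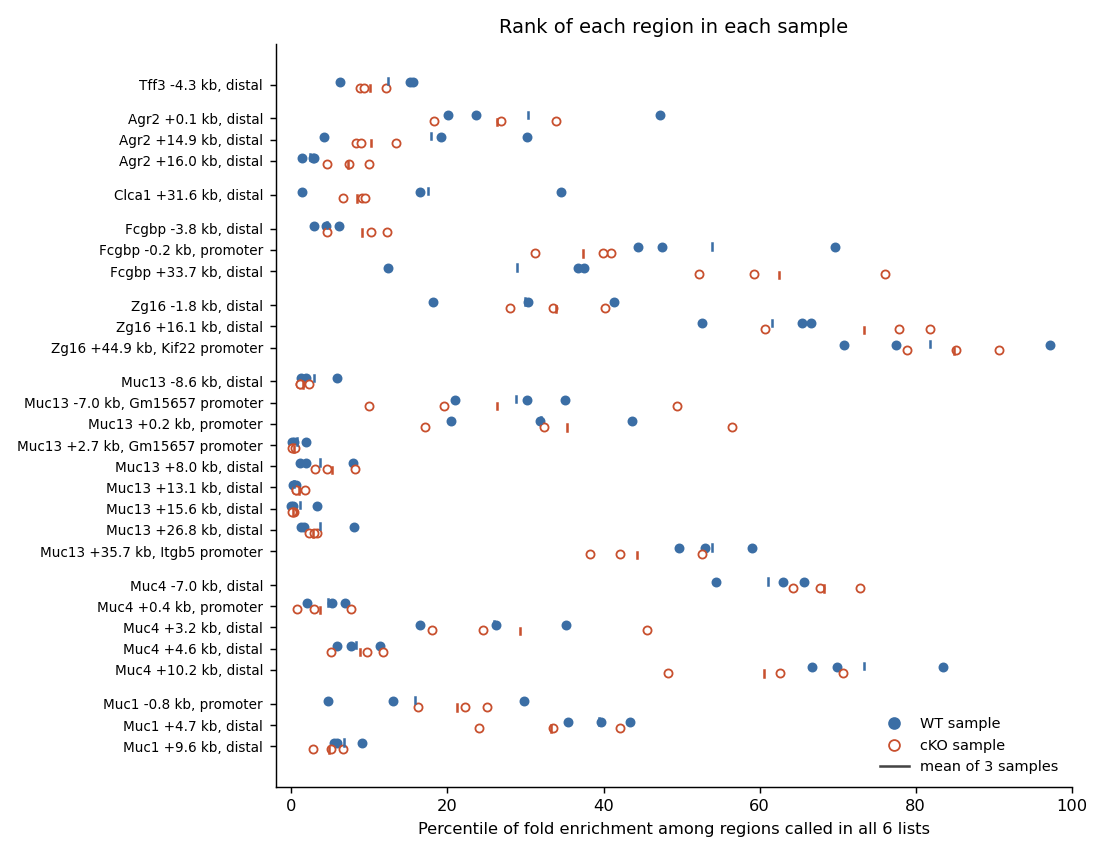
Percentile of fold enrichment of each of the 28 shared regions in each sample, with the mean of each genotype as a short line, and regions named by gene, distance from the gene start and class. The cKO samples lie wholly above the WT samples at Fcgbp +33.7 kb and Agr2 +16.0 kb, and wholly below at the Fcgbp promoter, and they overlap at the other 25 regions.

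Fcgbp, which encodes the Fc gamma binding protein of mucus, held 2 of the 3 regions whose genotypes did not overlap, one with higher and the other with lower ranks in cKO, and neither passed the limma test. The first lay inside the gene, 33.7 kb from its start, at chr7:28104586-28105459, and its summit window overlaps a coding exon. Its percentiles were 12.4, 37.4 and 36.7 in WT and 76.1, 59.3 and 52.2 in cKO. WT 1 was the lowest sample, and every WT sample stood below every cKO sample. The difference was 33.7 points (95% interval 8.71 to 58.6, limma adjusted p = 0.715), the widest among the 28 regions. Without WT 1 it was 23.5 points, and without cKO 1 it was 26.9 points.

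By the pileup itself, counted in fragments over the summit, the same region held 19, 37 and 40 in WT and 75, 39 and 44 in cKO. These counts overlapped between the genotypes and are not scaled to depth. Ranked by pileup, the region stood 12.8 points higher in cKO and its samples overlapped.

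The Fcgbp promoter region, chr7:28070430-28071458, had its summit at -167 bp from the start. Its percentiles were 69.6, 44.4 and 47.5 in WT and 41.0, 39.9 and 31.2 in cKO. All cKO samples were lower, though WT 2 and cKO 1 lay close together. The difference was -16.5 points (95% interval -39.7 to 6.73, limma adjusted p = 0.715), and it was -9.27 without WT 1. Ranked only against other promoters the difference was -8.85 points and the genotypes overlapped, and ranked by pileup it was -6.23 points and they overlapped too. The part of the general promoter shift in this result was not tested. A second promoter, at an internal start 29.5 kb into the gene, was called in 2 WT lists and 1 cKO list.

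The remaining shared region of Fcgbp, 3.8 kb upstream of the start, had percentiles of 6.14, 2.96 and 4.49 in WT and 4.63, 10.2 and 12.3 in cKO, which overlapped. The summit windows of the 3 regions are printed because they hold both Fcgbp regions whose genotypes did not overlap and their upstream neighbour, which did, read from GRCm38.p6 on the plus strand. Capitals mark CAGNTG letters in the promoter, a KLF and a CAGNTG match in the internal region, and GATA, FOXA (TGTTTAC) and ARID3 (ATCAAA or ATTAAA) matches in the upstream region.
Fcgbp upstream, chr7:28067361-28067561: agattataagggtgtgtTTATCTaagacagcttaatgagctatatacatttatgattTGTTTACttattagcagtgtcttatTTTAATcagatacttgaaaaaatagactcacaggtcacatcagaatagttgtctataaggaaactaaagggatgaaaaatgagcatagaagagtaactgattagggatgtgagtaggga
Fcgbp promoter, chr7:28070969-28071169: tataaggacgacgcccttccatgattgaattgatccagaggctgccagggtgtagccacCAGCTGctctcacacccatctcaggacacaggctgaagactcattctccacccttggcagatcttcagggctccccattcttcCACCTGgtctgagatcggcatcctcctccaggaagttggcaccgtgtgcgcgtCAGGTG
Fcgbp internal, chr7:28104838-28105038: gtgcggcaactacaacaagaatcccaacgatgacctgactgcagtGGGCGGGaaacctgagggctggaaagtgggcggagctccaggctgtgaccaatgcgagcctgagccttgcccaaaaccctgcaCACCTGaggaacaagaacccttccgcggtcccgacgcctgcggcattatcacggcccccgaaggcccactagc

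Agr2 had a peak over its start in all 6 lists, with the summit 149 bp inside the gene (region chr12:35992550-35994008). Its percentiles were 47.2, 20.02 and 23.7 in WT and 33.9, 18.3 and 26.9 in cKO. The groups overlapped, and the difference was -3.94 points (95% interval -24.1 to 16.2). A cluster of 3 further regions lay 12.0 to 16.0 kb from the start, beyond the end of the gene. The farthest, chr12:36008288-36009296, was the third region whose genotypes did not overlap. It ranked at 1.34, 2.77 and 2.96 in WT and 7.39, 4.57 and 9.94 in cKO, a difference of 4.95 points (95% interval -0.407 to 10.3, limma adjusted p = 0.715).

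All 6 of those percentiles are below 10, so this is a weak peak by fold in both genotypes. Its pileup was 15, 19 and 27 fragments in WT and 42, 20 and 41 in cKO. Ranked by pileup it again did not overlap and was 10.8 points higher in cKO. The neighbour 14.9 kb from the start went the other way in the mean, with 30.2, 4.12 and 19.2 in WT and 13.4, 8.24 and 8.92 in cKO, and its groups overlapped.

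These windows downstream of Agr2 are shown for comparison of the neighbouring pair. Capitals mark an HNF4 match (CAAAGTCCA or CAAAGTTCA) in the first, letters held by 2.51% of all regions, and a KLF match in the second.
Agr2 at 14.9 kb, chr12:36007658-36007858: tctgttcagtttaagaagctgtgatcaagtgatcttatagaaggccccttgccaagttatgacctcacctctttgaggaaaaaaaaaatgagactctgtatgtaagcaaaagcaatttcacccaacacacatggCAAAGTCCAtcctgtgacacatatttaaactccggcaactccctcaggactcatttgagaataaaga
Agr2 at 16.0 kb, chr12:36008770-36008970: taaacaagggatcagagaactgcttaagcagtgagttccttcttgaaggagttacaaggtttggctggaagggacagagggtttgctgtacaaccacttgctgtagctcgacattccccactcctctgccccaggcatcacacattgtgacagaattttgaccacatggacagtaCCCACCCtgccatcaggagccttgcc

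Tff3, the trefoil peptide, had no promoter peak. Its only shared region lay 4.3 kb upstream (chr17:31133791-31134443), at percentiles of 15.2, 15.6 and 6.25 in WT and 12.2, 8.84 and 9.33 in cKO. The samples overlapped and the difference was -2.22 points (95% interval -10.5 to 6.04). A second region next to it, 5.4 kb upstream, was called in 2 WT and 3 cKO lists and missed WT 1. None of the 9 motifs occurred in the summit window of the shared region.

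Clca1, a secreted protease of mucus, had a single shared region, at chr3:145000930-145001647, beyond the 3' end of the gene and 31.6 kb from its start. The WT samples spread from 1.36 to 34.6 with WT 3 at 16.5, and the cKO samples lay between them at 9.01, 6.58 and 9.47. Its pileups of 12 to 32 fragments were the lowest of any shared region at these genes in rank, at the 8.01 percentile in the median. The other 5 regions of Clca1 were called in 1 to 4 lists each.

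Zg16, a lectin of the mucus, had no peak at its starts, yet it held the region of highest fold rank among the distal regions of the secreted products. That region lay inside its long transcripts, 16.1 kb from their start (chr7:127070756-127071774), and upstream of another annotated start nearer the 3' end of the gene. Its percentiles were 66.6, 52.6 and 65.4 in WT and 81.8, 60.6 and 77.8 in cKO, a difference of 11.9 points (95% interval -5.36 to 29.1). The samples overlapped, with cKO 2 within the WT range. The difference was 7.29 points without WT 2, 7.66 without cKO 1 and 17.7 without cKO 2, and -2.27 when ranked by pileup. The promoter of the neighbouring gene Kif22, also in the window, ranked at 77.4, 70.9 and 97.3 in WT and 90.7, 85.2 and 78.9 in cKO. The promoter of another neighbour, AI467606, was called in 2 lists of each genotype.

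The window of the Zg16 region holds a GATA match, a CAGNTG match and a CDX match (TTTATGG or TTTACGG), marked in capitals in that order. Over all regions 12.7%, 46.5% and 4.32% hold these letters.
Zg16 internal, chr7:127071078-127071278: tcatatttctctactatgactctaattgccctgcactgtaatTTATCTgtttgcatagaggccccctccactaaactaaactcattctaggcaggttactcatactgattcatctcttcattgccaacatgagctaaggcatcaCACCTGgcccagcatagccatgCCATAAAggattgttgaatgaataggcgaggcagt

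The signal around the peaks was highest at Muc13. Local background is the expected number of fragments at a summit, taken by the caller from the surrounding sequence. At the 9 shared regions of Muc13 it was 8.69 to 37.7 fragments, a median of 10.4 times the genome-wide coverage of the list over all its peaks. Its rank among all shared regions was between the 84.0 and 96.0 percentile in the median of the 6 samples. For Muc1 that rank was 74.0 to 87.6 and for Muc4 44.6 to 80.3, while at Agr2, Clca1, Fcgbp, Tff3 and Zg16 it was 23.5 to 59.6. The ranks of Muc4 overlapped those of the secreted products, and no test was made between the genes.

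Fold divides by this background, and Muc13 regions ranked lower by fold than by pileup. By fold, 6 of its 9 shared regions were under the 5th percentile in the median, from 0.203 to 3.82, and by pileup all 9 stood between 43.5 and 78.2. The Muc13 promoter region, chr16:33793735-33795256, held 67, 106 and 126 fragments in WT and 183, 104 and 162 in cKO. Its fold percentiles were 43.7, 31.9 and 20.4 in WT and 17.1, 56.4 and 32.4 in cKO, which overlapped with a difference of 3.31 points (95% interval -22.0 to 28.7). Ranked by pileup, the percentiles were 78.1, 76.6 and 74.6 in WT and 78.3, 84.5 and 86.8 in cKO. These did not overlap, though cKO 1 and WT 1 differed by less than 1 point.

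Ranking by pileup was chosen after the values had been seen. On that scale 2 of the 28 regions were wholly higher in cKO (the Muc13 promoter and the Agr2 region at 16.0 kb), against 6.68% of all shared regions. Another, 8.6 kb upstream of Muc13, was wholly lower, against 6.45%, with 55.9, 54.7 and 51.3 in WT and 43.6, 45.8 and 50.8 in cKO. limma called 0 regions on that scale as well. Over the 28 regions the median percentile was 15.2 by fold, 49.6 by pileup and 75.3 by local background. Muc13 holds 9 of the 28, and without it the median by fold was 25.3.

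**Figure D5:**
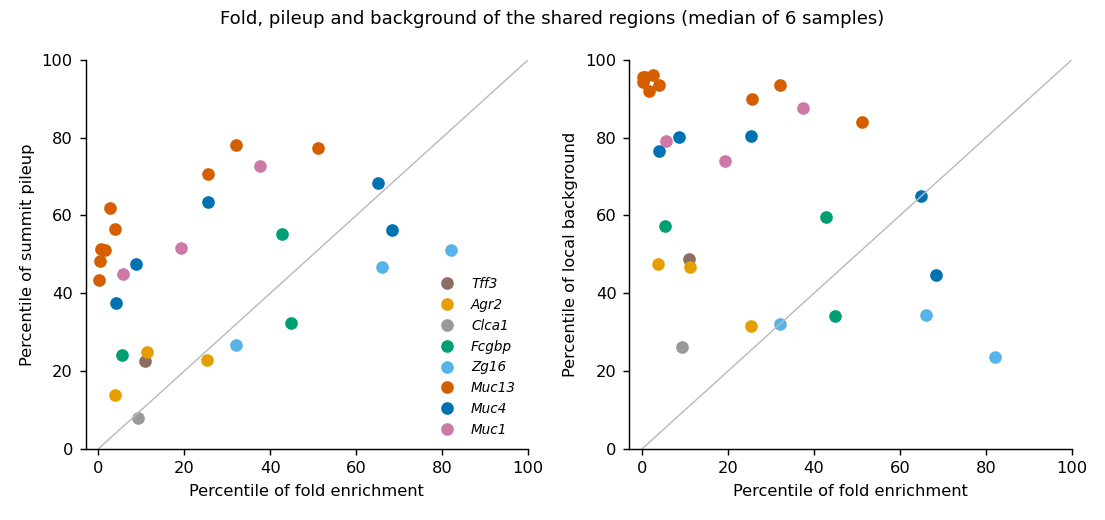
Median percentile over 6 samples of summit pileup (left) and of local background (right) against that of fold enrichment, for the 28 shared regions coloured by gene, with the line of equal ranks. Muc13 regions lie at 84.0 to 96.0 in background and, for 6 of 9, under 5 in fold, while their pileups lie at 43.5 to 78.2.

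Beyond its promoter, Muc13 held shared regions 8.0, 13.1, 15.6 and 26.8 kb from its start, and shared regions at promoters of the neighbour Gm15657 lay 7.0 kb upstream and 2.7 kb downstream of it. The promoter of Itgb5, an integrin subunit, closed the window at 35.7 kb, with 59.1, 53.04 and 49.7 in WT and 42.1, 52.6 and 38.2 in cKO. The region of highest fold rank among the distal ones, 8.0 kb from the start, stood at 7.89, 1.13 and 1.86 in WT and 3.03, 4.60 and 8.18 in cKO. None of the distal regions separated the genotypes by fold. The region at 13.1 kb is printed since it holds a pair of ARID3 matches, letters found in 16.1% of all regions, and capitals also mark a TATA box and a CAGNTG match.
Muc13 at 13.1 kb, chr16:33807003-33807203: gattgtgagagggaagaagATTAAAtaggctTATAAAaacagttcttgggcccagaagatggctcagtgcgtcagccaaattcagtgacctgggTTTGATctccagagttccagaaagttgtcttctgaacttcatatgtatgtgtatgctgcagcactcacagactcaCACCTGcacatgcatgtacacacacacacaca

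Muc4 held the highest fold ranks of the transmembrane mucins, at distal regions and not at its promoter. The region 10.2 kb inside the gene, chr16:32745593-32746424, stood at 66.7, 69.9 and 83.5 in WT and 48.2, 62.7 and 70.6 in cKO. The samples overlapped through cKO 3, and the difference was -12.8 points (95% interval -30.6 to 4.98). It was -7.72 points without WT 3 and -6.67 without cKO 1. Ranked only against other distal regions it did not overlap, with 83.6, 84.8 and 94.2 in WT and 58.6, 79.1 and 81.6 in cKO. On that scale, also chosen after the values were seen, 1 of the 28 regions was wholly lower, against 6.14% of all, and 2 were wholly higher (the internal Fcgbp region and the Agr2 region at 16.0 kb), against 5.71%.

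The region 7.0 kb upstream of Muc4 went the other way in the mean, with 63.0, 54.4 and 65.7 in WT and 67.7, 64.2 and 72.8 in cKO, overlapping. The Muc4 promoter region ranked at 1.98, 5.19 and 6.85 in WT and 2.85, 0.686 and 7.62 in cKO. Its pileups were 25, 41 and 55 fragments in WT and 66, 24 and 64 in cKO. Both regions of Muc4 with an AP-1 match (TGACTCA or TGAGTCA) are printed, at 3.2 and 10.2 kb, since they are the only ones of the 28 with those letters, which 8.09% of all regions hold.
Muc4 at 3.2 kb, chr16:32738997-32739197: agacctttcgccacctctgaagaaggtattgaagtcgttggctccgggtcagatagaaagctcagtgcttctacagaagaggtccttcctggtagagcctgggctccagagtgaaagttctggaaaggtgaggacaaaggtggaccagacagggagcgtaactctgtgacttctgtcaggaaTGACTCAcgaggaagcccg
Muc4 at 10.2 kb, chr16:32745954-32746154: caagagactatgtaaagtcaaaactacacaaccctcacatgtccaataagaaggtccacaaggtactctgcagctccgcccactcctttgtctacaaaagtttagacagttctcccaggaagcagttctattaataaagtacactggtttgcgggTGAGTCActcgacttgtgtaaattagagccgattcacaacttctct

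Muc1 had a promoter region with its summit at -784 bp from the start (chr3:89227197-89228529). Its percentiles were 4.70, 29.8 and 13.1 in WT and 16.3, 22.2 and 25.03 in cKO, so that the cKO samples fell inside the WT range. The low end of that range, WT 1, came from a peak of the merged region that did not reach the Muc1 promoter window. The difference was 5.33 points (95% interval -9.41 to 20.1), and it was -1.07 without WT 1. The strongest distal region by fold, 4.7 kb from the start, stood at 39.7, 35.4 and 43.3 in WT and 33.6, 42.1 and 24.1 in cKO. The region 9.6 kb from the start ranked under 10 in every sample. The promoter of the neighbour Thbs3 was called in WT 3 alone.

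Among all 53 regions, matches to the searched motifs were about as frequent as among all merged regions of the series. CAGNTG, the letters bound by ATOH1 and other basic helix-loop-helix factors, stood in 52.8% of the regions of these genes and in 46.5% of all. The shares for GATA were 17% and 12.7%, for ARID3 15.1% and 16.1%, and for KLF 18.9% and 18.2%. AP-1 was found in 5.66% and 8.09%, and HNF4, CDX, FOXA and the TATA box in 1 to 4 regions each. The HNF4 letters can overlap those of ARID3, and a match is a description of the sequence only.

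Promoter peaks were also counted over a list of 30 other genes of the mucus pathway. Of these, 12 (40%) had a promoter peak in all 6 lists, 12 (40%) in none and 6 in 1 to 5 lists, beside 58.6% and 33.9% of all coding genes in every list and in none. Enzymes of mucin O-glycosylation had a peak in every list in 5 of 9 cases, and B3gnt6, Gcnt3 and St6galnac1 had none. Of 7 genes of the secretory pathway and granule, 4 were in every list and Rep15 in none. Of 5 other goblet cell products, Spink4, Klk1 and Guca2a were in every list, and Retnlb and Ang4 in none. Of 9 paralogues of the 9 genes, 0 were in every list, and Tff1, Clca2, Clca4a, Muc5ac, Muc5b and Muc6 were in none.

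Promoter peaks of 13 of the 30 lay in a shared region and could be ranked. Of these 13, 0 were called by limma, 2 were wholly lower and 1 was wholly higher in cKO. Creb3l4, a transcription factor of the secretory pathway, ranked at 42.8, 26.9 and 37.2 in WT and 19.5, 9.63 and 20.2 in cKO. Creb3l1, of the same family, stood at 54.8, 47.4 and 43.2 in WT and 23.4, 36.5 and 36.6 in cKO. Both were wholly lower in cKO, as 7.46% of all shared promoter regions were. Spink4, a product of goblet cells, was wholly higher in cKO, at 37.6, 42.3 and 33.4 in WT and 44.4, 49.2 and 57.7 in cKO, as 3.6% of shared promoter regions were.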

How the data were processed

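The genotype given in the labels set the groups, 3 WT and 3 cKO. The authors processed the reads with the nf-core ATAC-seq pipeline on GRCm38 and called narrow peaks with MACS2 in each sample, with an effective genome size of 2.6 Gb. The deposited fold is a ratio of summit pileup to local background, and the deposited −log10 p and −log10 q come from the caller's Poisson model. The deposited score restates the q-value. Reads in peaks were not analysed here, and ranks of fold took the place of a count test.

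The members, gene lists, motifs and tests were chosen with earlier results of these data known. Counts of gene promoters by any overlap, ranks by recovered pileup and ranks within a class were added after the values had been seen. Peaks on 21 chromosomes were kept. Gene models were those of GENCODE M21 for that build, while the authors used an Ensembl annotation. The whole pileup that satisfies both fold and p was recovered for 100% of peaks in every list, and for at most 0.76% after p was shifted at random. All 15 pairs of lists differed. Overlapping peaks were merged by 1 base of overlap, and percentiles were computed among regions called in all 6 lists. They were fitted with limma 3.58.1 (lmFit, eBayes with trend, two-sided, Benjamini-Hochberg over all shared regions, threshold 0.05). With 3 against 3 samples, an exact permutation test of a single value cannot go below 0.1, so counts are descriptions.

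Every listed gene was named, with its promoter region, its distal region of highest median percentile, each region whose genotypes did not overlap, and neighbours whose promoters lay in a window. Pathway genes were named for their promoters where the genotypes did not overlap or where no list had a peak. Motifs were sought without mismatch on both strands within 100 bp of the summit. Patch sequences were aligned with minimap2 2.31 to find exact repeats. Of the 9 genes, 6 had a promoter in the set of RefSeq promoter sequences used here, and Tff3, Clca1 and Zg16 had none in that set. Same-numbered samples did not deviate together (correlations of -0.295, -0.013 and 0.140), so the replicate numbers were not taken as pairs. Differently numbered samples correlated from -0.355 (WT 3 with cKO 2) to 0.325 (WT 3 with cKO 1), with 0.305 for WT 1 with cKO 2. The source of these correlations was not tested. Python 3.11.15, numpy 2.4.6, pandas 2.3.3 and matplotlib 3.10.9 were used.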

Additional observations from a re-analysis of the deposited data

Results flagged for a closer look

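A single peak lay on the patch that carries the second copy of Muc2. It was called in cKO 2 only, 232 bp wide, with a fold of 4.002 and a −log10 q of 3.13, and 8.48% of the peaks of that list had a −log10 q at or below it. The other 5 lists held no peak on that patch. It stands out as signal on a sequence that no comparison above used, and with 1 list of 6 the genotypes were not compared on it.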

How the results depend on the processing

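Ranking within whole lists, by −log10 q, by log2 fold, by pileup or within a class, leaving out weak peaks, lists of equal length, summit windows, no trend in eBayes, the replicate block and leaving out each sample all gave 0 called regions with limma. With the replicate block, 0 of 32748 regions were called and the lowest limma adjusted p was 0.790 against 0.715 without it; in this balanced design the block cannot change a difference of means.

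With −log10 q of at least 5, 0 of 20 shared regions were wholly higher in cKO (5.74% of all). With lists of equal length the count was 1 of 23 (5.78% of all), against the 2 of 28 (5.86%) reported above. The Agr2 region at 16.0 kb left the shared set under both settings and the internal Fcgbp region under the first. The count wholly lower was 3 with ranks within whole lists (7.04% of all) and 2 by −log10 q (6.26%), against 1 (6.08%) reported above. Leaving out each sample in turn gave 2 to 5 regions wholly higher and 1 to 5 wholly lower. The most wholly higher were 5 of 31 without WT 1 (9.73% of all) and 5 of 28 without WT 3 (11.7%). The most wholly lower were 5 of 28 without cKO 2 (23.6%). Non-overlap is easier to reach with fewer samples, so these counts and the background rise by design when any sample is left out. The background was highest without cKO 2, at 16.1% wholly higher and 23.6% wholly lower. Without any other sample it was 8.49% to 11.7% higher and 8.77% to 13.5% lower. Without cKO 2, 6055 regions had an unadjusted limma p under 0.05, against 1128 to 2617 without another sample. The lowest limma adjusted p was then 0.213. Why cKO 2 weighed more was not tested.

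Means per list depended on the limits set. With −log10 q of at least 5, WT promoter peaks averaged 3.33 and distal peaks 23.7 in WT and 25.7 in cKO. With lists of equal length, promoter peaks averaged 3.67 in WT and 4 in cKO and distal peaks 23.7 and 23.3. A window of 2 kb left 18.0 distal peaks in each genotype, and 25 kb gave 46.0 and 47.7. With promoters taken 500 bp on each side, promoter peaks averaged 4.67 in WT and 4.33 in cKO, the reverse order of the 4 and 4.67 reported.

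Small differences changed sign. The median promoter difference of 1.18 points ranged from -3.67 to 3.65 over samples left out, and was -2.17 within whole lists, -2.45 with 500 bp promoters, -0.828 with summit windows and 5.12 with −log10 q of at least 5. Agr2 at its start was 0.0031 higher in cKO by log2 fold and 1.56 points higher by pileup. The internal Zg16 region was -2.27 points by pileup, and the Tff3 region 0.621 points with −log10 q of at least 5. Leaving out each sample ranged from -9.17 to 3.79 for Agr2 at its start, from -1.07 to 12.5 for the Muc1 promoter, from -7.71 to 12.4 for the Muc13 promoter and from -3.62 to 0.376 for the Muc4 promoter. The cause was not tested. Depth was seen only through the lists, and weak regions missing from the shortest list, WT 1, were not ranked.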
